A study of Mus musculus with 4 samples.

Results

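Amyloid-beta peptide is cut from the amyloid precursor protein, APP, and is removed from brain tissue by secreted and membrane-bound proteases, by uptake through lipoprotein receptors and by binding to carrier proteins. APP itself is steered through the cell by adaptor proteins that bind its cytoplasmic tail. The values below are those of 10 mouse genes of these systems in the hippocampus of mice that overexpress mutant APP. They are the proteases Mme, Ide and Ece1, the protease inhibitors A2m and Cst3, the receptor Lrp1 with its chaperone Lrpap1, and the tail adaptors Apbb1, Apbb2 and Apba1. The genes were grouped by function, with earlier results of these data known. An array reads each transcript through 1 or more probe sets, sets of short oligonucleotides, and every probe set annotated with a single symbol from this list was taken. That gave 14 probe sets for 9 genes, out of 10833 probe sets and 8251 genes with a single symbol. Apba1, which encodes an adaptor also called X11 or Mint1, is not among those symbols and was not analysed here.

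All mice were male and aged 12 months, and RNA of the left hippocampus was hybridised to 4 arrays. The 2 APPSw arrays are from Tg2576 mice, and the 2 control arrays are from nontransgenic C57B6/SJL mice. Tg2576 mice carry a human APP transgene with the Swedish mutation, driven by prion protein gene sequences of the hamster, and deposit amyloid with age. The labels describe each array as the RNA of a mouse, do not say whether the controls were littermates, and do not name the mouse of each array, so the p-values reflect the spread of these 4 arrays, part of which may be technical. In pieces of tissue, fewer cells of a type and less RNA per cell cannot be told apart.

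The values are MAS 5.0 signals on a linear scale, and precision is limited throughout by having 2 arrays in each group. Median signals lay between 924 and 1031 on the 4 arrays. Of 10 measured marker genes of hippocampal principal neurons, 9 had a mean signal above the filter used here, a geometric mean of 565.3, and the other was Prox1. The arrays also differed in RNA of neighbouring tissue. The summed signal of 6 measured choroid plexus markers was 95105 and 5215 in APPSw 1 and 2, against 12386 and 4081 in control 1 and 2. The summed signal of 8 markers of meninges and fibroblasts was 59030 and 35107 in APPSw mice, against 25574 and 30536 in controls.

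No probe set of the 9 genes passed limma's test between APPSw and control hippocampus. Of the 14 probe sets, 9 passed the filter on dim signals and stand for 7 genes, and the 5 others include the single probe sets of Mme and A2m. By limma, 0 of the 9 kept probe sets had an adjusted p under 0.05, among 7453 kept probe sets of which 0% were called in either direction. At an unadjusted p under 0.05 the members again gave 0, where 8.05% of all kept probe sets passed. The largest kept difference was that of Apbb2, and the largest of all were those of the 2 dim genes, higher in APPSw mice for A2m and lower for Mme.

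**Figure D1:**
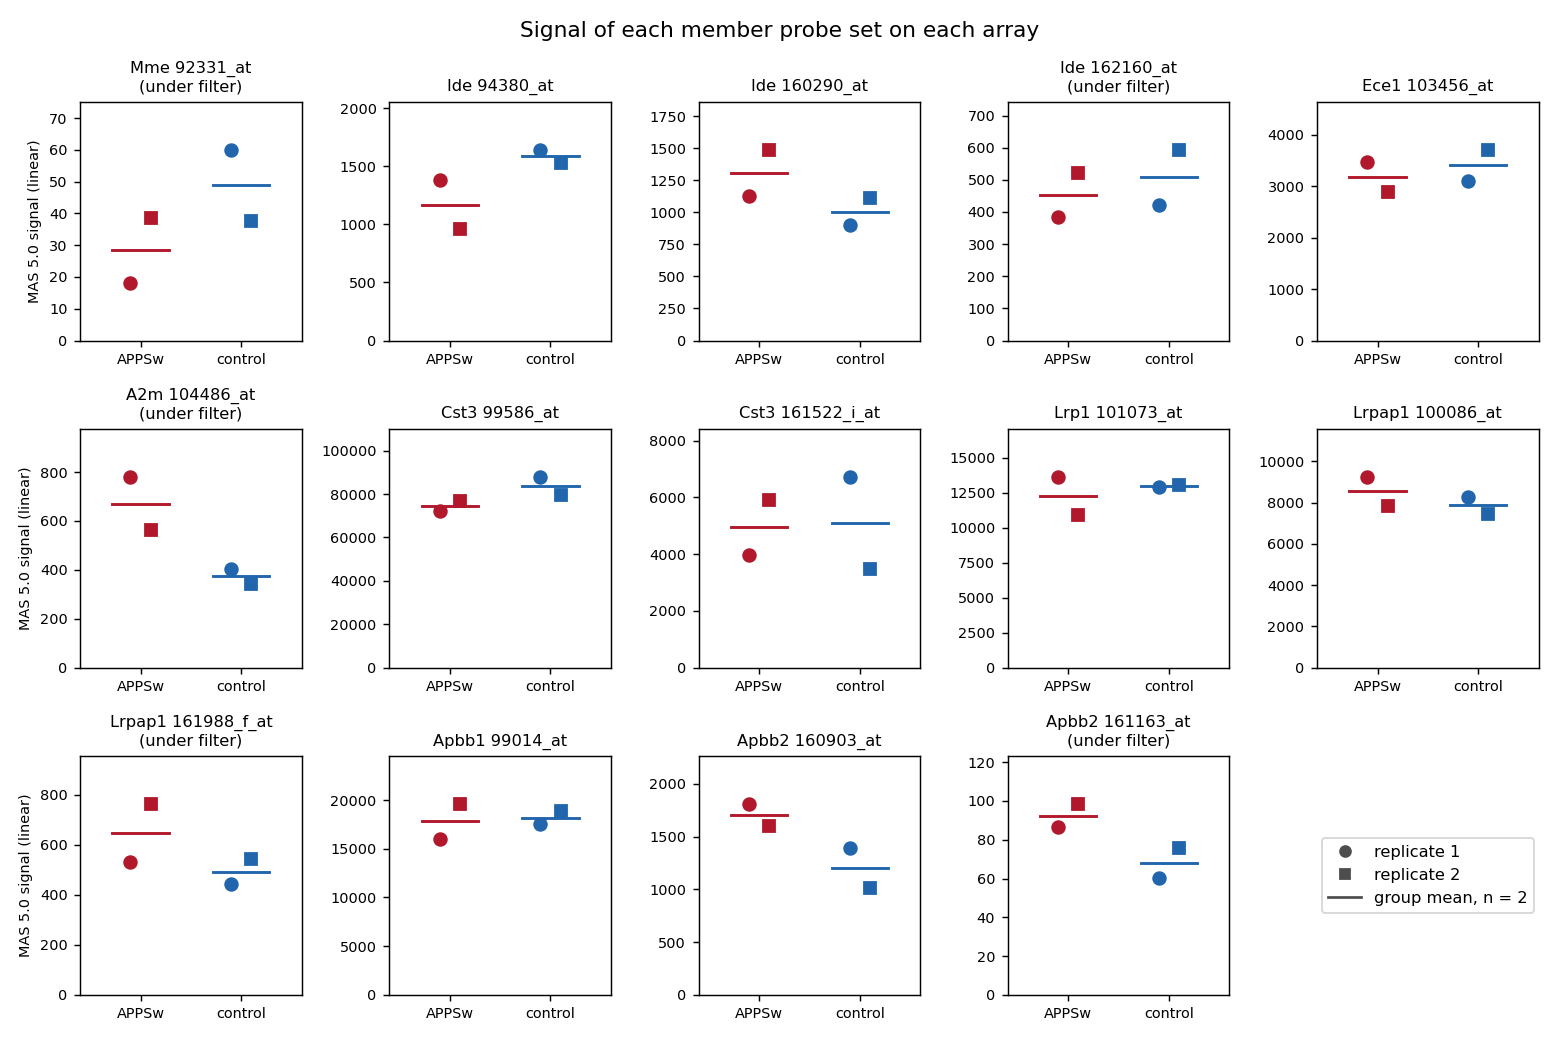
MAS 5.0 signal (linear, each axis from 0) of the 14 member probe sets, APPSw left and control right, with circles for replicate 1, squares for replicate 2 and a line for the mean of 2 arrays. A2m and Apbb2 had both APPSw arrays above both controls, and the brightest pair of Ide probe sets separated the groups in opposite directions.

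Among the proteases, Mme encodes neprilysin, a zinc metallopeptidase of the cell surface that is a main degrader of amyloid-beta. Its only probe set, 92331_at, had signals of 18.2 and 38.6 in APPSw mice, against 60.1 and 37.5 in controls. APPSw 2 lay within the controls and APPSw 1 below both. The log2 difference, APPSw minus control, was -0.84 (95% interval -2.27 to 0.59, adjusted p = 0.784 by limma fitted to all 12422 probe sets). It lay between -1.38 and -0.30 when an array was left out, and was -0.10 with a pseudocount of 250. After quantile normalization the signals were 14.9 and 35.4 in APPSw mice, against 68.7 and 39.9 in controls, with no overlap. At signals this far under the filter the level of Mme was not resolved, so the interval allows a 4.82-fold lower and a 1.50-fold higher signal in APPSw mice.

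Ide encodes insulin-degrading enzyme, a cytosolic and secreted zinc protease that cleaves insulin and amyloid-beta. Its probe sets disagreed. Probe set 94380_at gave signals of 1380 and 959 in APPSw mice, against 1645 and 1527 in controls. Both APPSw arrays were below both controls there, and the log2 difference was -0.46 (SE 0.23, 95% interval -1.03 to 0.11, adjusted p = 0.620, limma). Probe set 160290_at gave 1125 and 1489 in APPSw mice, against 902 and 1110 in controls. Both APPSw arrays were above both controls, but the nearest arrays, APPSw 1 and control 2, were only 1.34% apart, and the log2 difference was 0.37 (SE 0.22, 95% interval -0.18 to 0.92, adjusted p = 0.654, limma).

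The dimmer Ide probe set, 162160_at, gave 386 and 520 in APPSw mice, against 422 and 594 in controls, and its groups overlapped. Its log2 difference was -0.16 (adjusted p = 0.915 by limma with no filter). The within-array log2 ratio of 160290_at over 94380_at was -0.29 and 0.64 in APPSw mice, against -0.87 and -0.46 in controls. The ratio was thus 0.83 higher in APPSw mice. Its groups could not overlap, because these probe sets separated the groups in opposite directions. Its exact two-sided permutation p of 0.33, the smallest that 2 arrays against 2 can give, was therefore fixed and is no further test. No single direction for Ide can be read from these arrays. APPSw 2 was the array farthest from the control mean on both bright probe sets, and without it the differences were 0.17 for 160290_at and -0.20 for 94380_at.

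Ece1 encodes endothelin-converting enzyme, a membrane metallopeptidase of the same family as neprilysin that degrades amyloid-beta inside cells. Its signals were 3472 and 2896 in APPSw mice, against 3102 and 3715 in controls. The groups interleaved, and the log2 difference was -0.10 (SE 0.20, adjusted p = 0.903, limma). The 95% interval of -0.59 to 0.39 reached a 1.50-fold lower and a 1.31-fold higher signal in APPSw mice.

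**Figure D2:**
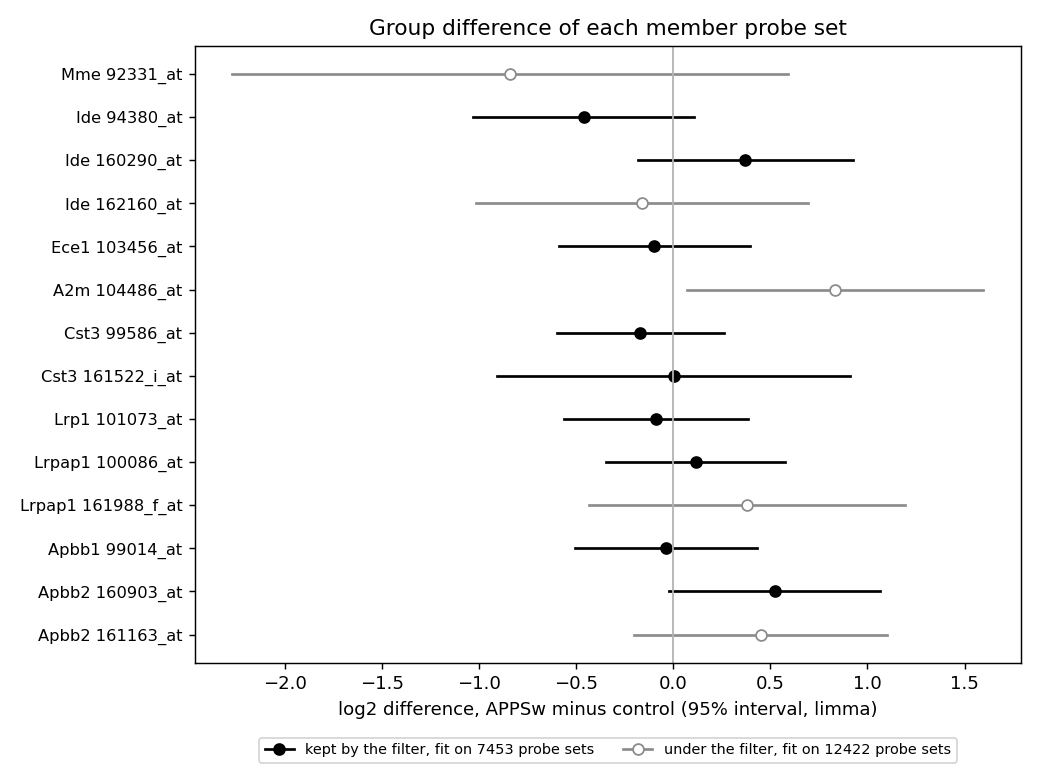
Log2 difference, APPSw minus control, of the 14 member probe sets with 95% limma intervals, filled points for probe sets kept by the filter and open points for those under it. The interval crossed 0 for each of them except A2m, whose lower end was 0.07 before adjustment for the number of probe sets.

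A2m encodes alpha-2-macroglobulin, a secreted inhibitor that traps proteases, binds amyloid-beta and is taken up by the receptor Lrp1. Its signals were 780.7 and 561.7 in APPSw mice, against 405.3 and 340.8 in controls. Both APPSw arrays lay above both controls, the nearest by 1.39-fold, and the signal was 1.78-fold that of controls on the log2 scale, a difference of 0.83. Its mean, a geometric mean signal of 496, was below the filter, so it was tested only in limma's fit with no filter. There the unadjusted p was 0.039, in a fit where 6.57% of 12422 probe sets had one under 0.05, 4.48% with a higher signal in APPSw mice, and the adjusted p was 0.736. A2m was the only member probe set under 0.05 in that fit. The difference was 0.60 without APPSw 1 and 1.07 without APPSw 2, and 0.69 after quantile normalization.

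Markers of other tissues stood beside A2m as follows. Of 7 kept markers of meninges and fibroblasts, 6 had both APPSw arrays above both controls and 0 lay below. Of all kept probe sets, 22.2% were higher and 19% lower in this way. The median log2 difference of the 7 was 0.65. The only other marker of that list, Col3a1, was under the filter and differed by -0.20 with overlapping groups. Of 6 measured choroid plexus markers, 4 were highest in APPSw 1, the array with the highest A2m, and Aqp1 and Cldn2 in control 2. Slc4a5, among those 4, was under the filter, as were Aqp1 and Cldn2. Among the 4, Ttr had 83384 and 3236 in APPSw 1 and 2, against 8908 and 1896 in controls. The 4 measured genes of blood plasma proteins made by the liver summed to 1353 and 1294 in APPSw mice, against 1813 and 1639 in controls. Of these 4, 3 were under the filter. Hp, the haptoglobin gene and the only one kept, had 960 and 1010 in APPSw mice, against 1312 and 1204 in controls. Alb, the albumin gene, had 207 and 156 in APPSw mice, against 398 and 248 in controls. Apoa1, an apolipoprotein gene, had 171 and 112 in APPSw mice, against 84.7 and 150 in controls, with overlapping groups. The erythrocyte markers measured, Hba-a1 and Alas2, summed to 11666 and 19692 in APPSw mice, against 8808 and 11055 in controls. Hba-a1, an alpha-globin gene, had both APPSw arrays above both controls (log2 difference 0.62, adjusted p = 0.616, limma), and APPSw 2 was the higher of them, where A2m was the lower. The part of neighbouring tissue and blood in the A2m values was not tested.

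Cst3 encodes cystatin C, a secreted inhibitor of cysteine cathepsins that binds amyloid-beta and is made by astrocytes, microglia and choroid plexus. Probe set 99586_at gave 72015 and 76767 in APPSw mice, against 87973 and 79491 in controls. Both APPSw arrays were below both controls, by 3.55% between the nearest arrays, and the log2 difference was -0.17 (SE 0.17, 95% interval -0.60 to 0.26, adjusted p = 0.787, limma). After quantile normalization the groups overlapped and the difference was -0.09. The other probe set, 161522_i_at, gave 3982 and 5913 in APPSw mice, against 6730 and 3492 in controls. Those groups overlapped, and a log2 difference of 0.0015 (SE 0.37, adjusted p = 0.999, limma) came with gaps of 1.48-fold between the APPSw arrays and 1.93-fold between the controls. Summed astrocyte markers were 101946 and 104919 in APPSw mice, against 105082 and 104005 in controls. Summed microglial markers were 27917 and 29028 in APPSw mice, against 34143 and 29012 in controls. The sums hide mixed directions. Both APPSw arrays were above both controls for 2 of 7 kept astrocyte markers and below for 1. For the 6 kept microglial markers these counts were 2 and 2. Of all kept probe sets, 22.2% were above and 19% below in this way. The choroid plexus sums are given above, and the part of these sources in the Cst3 values was not tested.

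Lrp1 encodes the low-density lipoprotein receptor-related protein, an endocytic receptor of neurons, glia and vessels that takes up amyloid-beta, apolipoprotein E and alpha-2-macroglobulin complexes and also binds APP. Its signals were 13652 and 10936 in APPSw mice, against 12936 and 13047 in controls. The controls agreed within 1.01-fold and lay between the APPSw arrays, and the log2 difference was -0.09 (SE 0.19, 95% interval -0.56 to 0.38, adjusted p = 0.910, limma). Its sign followed a single array, and without APPSw 2 the difference was 0.07.

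Lrpap1 encodes the receptor-associated protein, a chaperone that keeps Lrp1 and related receptors from binding ligands before they reach the surface. Probe set 100086_at gave 9260 and 7837 in APPSw mice, against 8287 and 7457 in controls. APPSw 2 lay between the controls, and the log2 difference was 0.12 (SE 0.19, 95% interval -0.34 to 0.58, adjusted p = 0.870, limma). The dim probe set 161988_f_at gave 530 and 764 in APPSw mice, against 442 and 542 in controls, with a log2 difference of 0.38 (adjusted p = 0.798 by limma with no filter). Both Lrpap1 probe sets had a positive difference and overlapping groups. With an array left out, 100086_at ranged from -0.0044 without APPSw 1 to 0.24 without APPSw 2, and 161988_f_at from 0.12 without APPSw 2 to 0.64 without APPSw 1.

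The adaptors Apbb1 and Apbb2 encode Fe65 and its relative Fe65-like 1, which bind the APP tail through a phosphotyrosine-binding domain. Apbb1, the neuronal member, gave 16048 and 19613 in APPSw mice, against 17499 and 18893 in controls. The controls lay between the APPSw arrays, and the log2 difference was -0.04 (SE 0.19, 95% interval -0.50 to 0.43, adjusted p = 0.970, limma). Its sign turned to 0.11 without APPSw 1 and to 0.02 without control 2.

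Apbb2 had both APPSw arrays above both controls on each of its probe sets. Probe set 160903_at gave 1811 and 1604 in APPSw mice, against 1389 and 1015 in controls, with 1.15-fold between the nearest arrays. The log2 difference was 0.52 (SE 0.22, 95% interval -0.02 to 1.06, adjusted p = 0.612, limma), or 1.44-fold, and its unadjusted p of 0.057 was the lowest among the kept members. The dim probe set 161163_at gave 86.4 and 98.5 in APPSw mice, against 60.2 and 75.6 in controls, a log2 difference of 0.45 (adjusted p = 0.770 by limma with no filter). At those signals, after quantile normalization, its groups overlapped.

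With an array left out, the 160903_at difference ranged from 0.30 without control 2 to 0.75 without control 1. Its sign could not turn there, since both APPSw arrays lay above both controls. Markers of hippocampal principal neurons, summed over 10 genes, were 59559 and 46664 in APPSw mice, against 74682 and 68815 in controls. Of the 9 kept ones, 7 had both APPSw arrays below both controls, 0 had both above and 2 overlapped. Of all kept probe sets, 19% were lower and 22.2% higher in this way. The sum lay the other way from Apbb2, and the part of these neurons in the adaptor values was not tested.

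**Figure D3:**
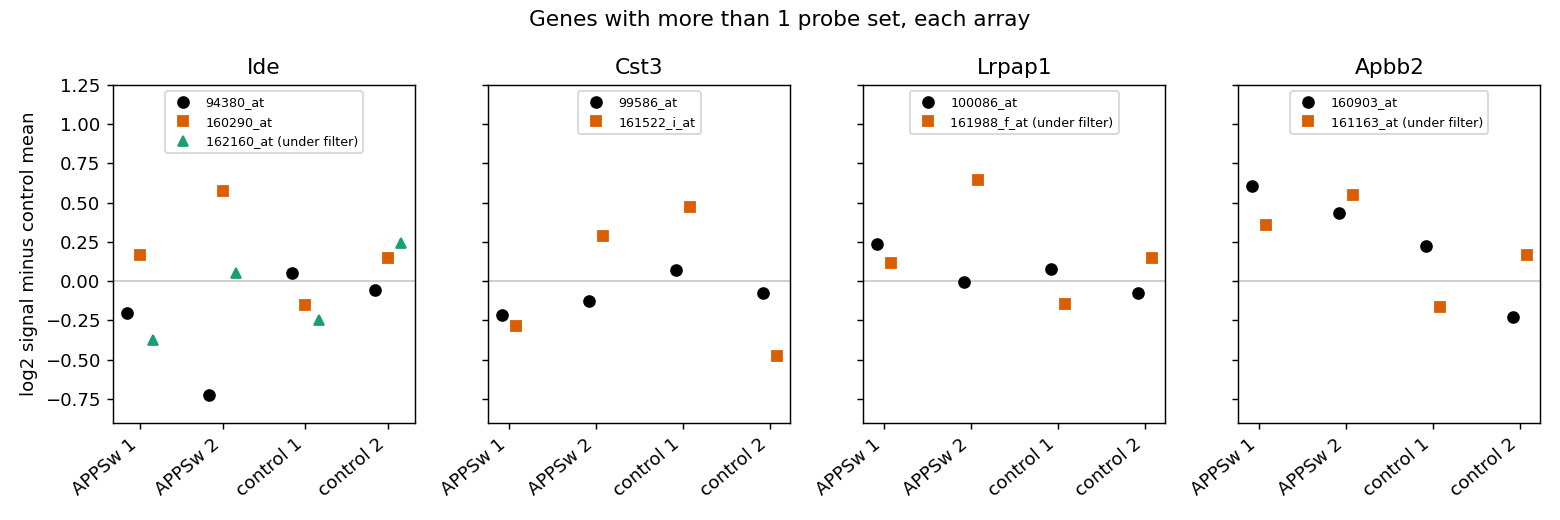
Log2 signal of each array minus the control mean for the 4 genes with more than 1 probe set, a marker shape for each probe set. The Apbb2 probe sets lay above the control mean on both APPSw arrays, while the Ide probe sets 94380_at and 160290_at lay on opposite sides of it.

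Agreement between probe sets of a gene was thus partial. For Apbb2 and Lrpap1 both probe sets had the same sign, for Cst3 the difference of the dimmer one was 0.0015 beside a negative one, and for Ide 2 were negative and 1 was positive. The within-array log2 ratio of 160903_at over 161163_at of Apbb2 differed between groups by 0.07, that of 161522_i_at over 99586_at of Cst3 by 0.17, and that of 100086_at over 161988_f_at of Lrpap1 by -0.26, APPSw minus control.

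Across the members, differences had no common direction. Of the 9 kept probe sets, 4 had a positive and 5 a negative difference, with a median of -0.04, where the median of all kept probe sets was 0.02. The median size of the difference, whatever its sign, was 0.12 for the members, against 0.19 for all kept probe sets. Both APPSw arrays lay on 1 side of both controls for 4 of the 9, 2 higher (Apbb2 and Ide 160290_at) and 2 lower (Ide 94380_at and Cst3 99586_at). The same was true of 41.2% of all kept probe sets (22.2% higher and 19% lower), so the members' count is near the background. Over all 14 it was 6, 4 higher and 2 lower, where 39.3% of 12422 probe sets were separate, 23.6% higher and 15.7% lower. After quantile normalization 2 of the 9 remained separate, Apbb2 160903_at and Ide 94380_at. The share of all kept probe sets was not counted under that normalization, so this count has no background beside it. Arrays of the same group differed by a median of 1.22-fold (APPSw) and 1.11-fold (control) over the kept member probe sets, against 1.18-fold and 1.14-fold over all kept ones. The group difference was larger than both within-group gaps for 2 of the 9, or 22.2%, against 27.7% of all kept probe sets.

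**Figure D4:**
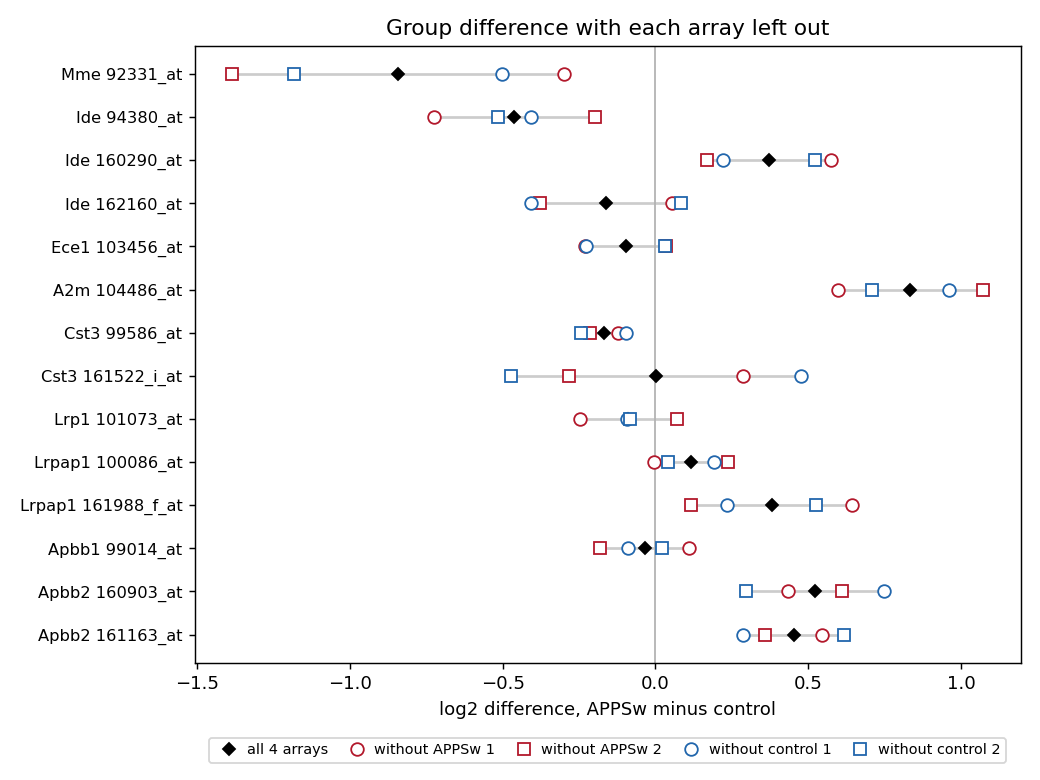
Log2 difference, APPSw minus control, of the 14 member probe sets with all 4 arrays (diamonds) and with each array left out (red for an APPSw array, blue for a control, circles for replicate 1, squares for replicate 2). A2m, both Apbb2 probe sets, Ide 160290_at and Lrpap1 161988_f_at stayed above 0, and Mme, Ide 94380_at and Cst3 99586_at stayed below it. For all of these but Mme and Lrpap1 161988_f_at the groups did not overlap, so the sign could not turn.

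App, the mouse gene for the protein that amyloid-beta is cut from, gave 96435 and 83384 in APPSw mice, against 84901 and 94877 in controls. The groups interleaved, with a log2 difference of -0.0013 (adjusted p = 0.999, limma). The sources do not say whether the mouse probes read the human transgene, so App does not check the labels.

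Other genes of these systems were read from 4 lists, each gene by its brightest probe set. In all 4 lists 0 genes were called higher and 0 lower by limma. Of 25 other amyloid-degrading and lysosomal proteases and their inhibitors, 19 were measured and 17 kept, 8 with a positive and 9 with a negative log2 difference and a median of -0.01. Timp1, a secreted inhibitor of matrix metalloproteases, gave 4303 and 3297 in APPSw mice, against 2053 and 2407 in controls, a log2 difference of 0.76 (SE 0.21, adjusted p = 0.599, limma). As with A2m, both APPSw arrays were above both controls, and its other probe set, dim at 22.5 to 100.5, differed by -0.86. Nrd1, which encodes nardilysin, a protease of the same family as insulin-degrading enzyme, gave 2688 and 3436 in APPSw mice, against 4460 and 4996 in controls. Its log2 difference was -0.64 (SE 0.20, adjusted p = 0.599, limma).

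By their brightest probe sets, those 2 genes were the only kept ones of the 4 lists with an unadjusted p under 0.05, 1 in each direction, where 4.72% of all kept probe sets were higher and 3.33% lower at that p. The plasmin precursor gene Plg differed by 0.54 (0.64 by its dimmer probe set), and Plau, the urokinase gene whose product activates plasminogen, by -0.44. Plg had both APPSw arrays above both controls on both probe sets, and Plau had both below. Neither gene passed limma's test (adjusted p = 0.612 and 0.627).

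Of 19 genes of the low-density lipoprotein receptor family, carriers and transport receptors, 15 were measured and 8 kept, 3 with a positive and 5 with a negative difference and a median of -0.14. The median was 0.05 with no filter and 0.0050 without APPSw 2, and stayed negative under the other alternatives. Sorl1, a sorting receptor that moves APP between endosome and Golgi, gave 1180 and 1719 in APPSw mice, against 2144 and 1939 in controls. Both APPSw arrays were below both controls, and the log2 difference was -0.52 (SE 0.23, adjusted p = 0.612, limma). Abca1, a lipid exporter that loads apolipoprotein E, differed by 0.28 by its brightest probe set and by -0.63 by its other (adjusted p = 0.676 and 0.599, limma), each time with no overlap between groups. Lrp6, a Wnt co-receptor, differed by 0.22 and Apoe, the lipid carrier that Lrp1 takes up, by -0.14. The dimmer probe sets of these last 2 gave -1.15 for Lrp6 and 1.14 for Apoe, both under the filter.

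Of 18 other APP adaptors, 12 were measured and 11 kept, 8 with a positive and 3 with a negative difference and a median of 0.11. Mapk8ip1, the JIP1 scaffold that links APP to JNK kinases and kinesin, gave 11215 and 10455 in APPSw mice, against 6919 and 9020 in controls. The log2 difference was 0.45 (SE 0.20, adjusted p = 0.612, limma), and 0.15 by its other probe set, again with both APPSw arrays above both controls. Apba2, the relative of the unmeasured Apba1, gave 8148 and 8846 in APPSw mice, against 7166 and 6116 in controls, a difference of 0.36 (SE 0.18, adjusted p = 0.620, limma). The endocytic adaptor Dab2 differed by 0.35, with APPSw 1 highest at 1196 and the other arrays between 726 and 738, and by 0.42 and -0.07 by its other probe sets. Dab1, the adaptor of the reelin pathway, differed by 0.21 with overlapping groups.

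Of 9 partners of the Fe65 and X11 adaptors, 6 were measured and kept, 3 with a positive and 3 with a negative difference and a median of -0.04. Cask and Lin7c, scaffold proteins of the synaptic complex that holds X11, differed by -0.25 and -0.23, each with both APPSw arrays below both controls, and Lin7b by 0.04. The second Lin7c probe set differed by -0.29 with overlapping groups. Tfcp2, a transcription factor that binds Fe65, differed by -0.09. None of these differences passed limma's test, with adjusted p from 0.694 to 0.992 over the 6 genes.

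**Figure D5:**
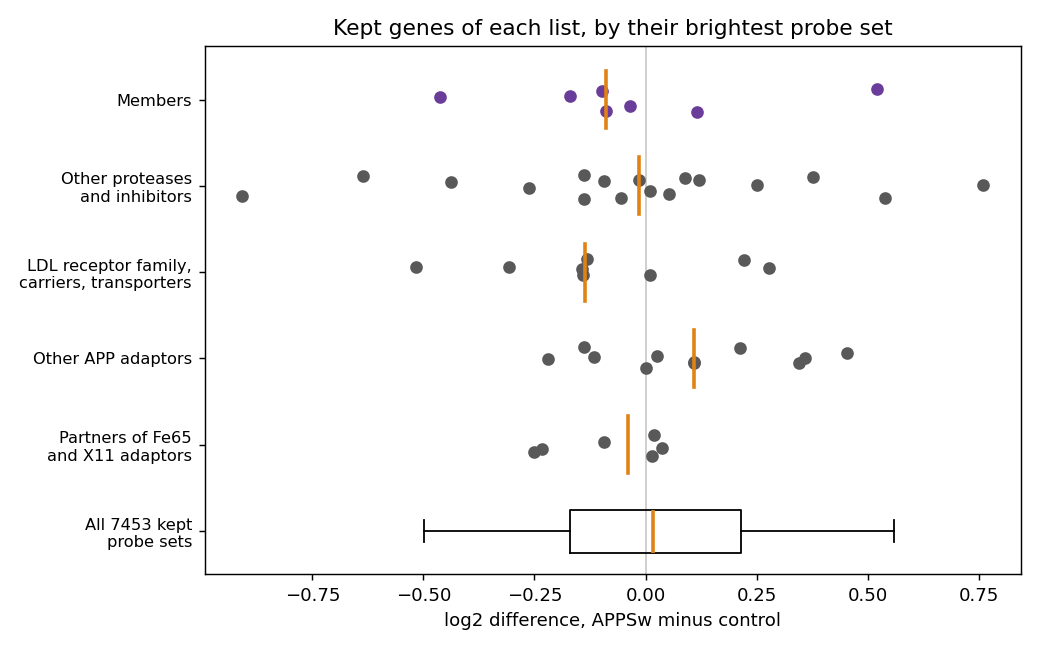
Log2 difference, APPSw minus control, of the kept genes of the members and of 4 lists of other genes, each by its brightest probe set (points), with the median of each list in orange. The box at the bottom gives the quartiles of all 7453 kept probe sets, with whiskers from the 5th to the 95th percentile, and the medians of the lists lay between -0.14 and 0.11.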

How the data were processed

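Per the labels, the authors ran MAS 5.0 and set each array to a target of 2500, and each deposited value is the resulting intensity of a probe set on a linear scale. Background settings, detection calls and probe positions were not used here. Of 12488 probe sets, 66 manufacturer's controls were left out, and genes were named from the platform annotation. All 9 genes found matched the current RefSeq gene table by identifier. Probe sets with a mean log2 signal under the 40th percentile were left out, which kept 7453. The groups' log2 signals were tested two-sided with lmFit and eBayes of limma 3.58.1 (R 4.3.3), p-values were adjusted by Benjamini-Hochberg over all probe sets fitted, and the threshold was 0.05. Members under the filter were read from the same fit without it. Within-array ratios were compared by exact permutation.

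The lists, like the members, were chosen knowing earlier results of these data, so lists have counts and medians and no test. The text names all members, App, Ttr, Alb and Apoa1, and up to 4 genes of each list with the largest moderated statistic among kept probe sets. The markers Hp, Hba-a1, Alas2, Slc4a5, Aqp1, Cldn2, Col3a1 and Prox1 were named after their values were seen. The groups came from the sample titles. Alternatives were each array left out, quantile normalization, an intensity trend, a block on the replicate number, a 60th percentile filter or none, and a floor or a pseudocount of 250. Marker lists covered 10 sources of RNA.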

Additional observations from a re-analysis of the deposited data

How the results depend on the processing

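Under all 11 alternatives, limma called 0 probe sets, members or others, higher or lower at an adjusted p under 0.05. With all arrays, the member probe sets with an unadjusted p under 0.05 by limma were 0 of 9 with the filter and 1 of 14 without it. The shares of all probe sets under that p were 8.05% of 7453 and 6.57% of 12422. Member probe sets whose arrays did not overlap between groups were 4, and 2 after quantile normalization. With the 60th percentile filter, which kept 6 members, there was 1. With an array left out there were 5 to 7, where 2 arrays against 1 overlap less often by construction. The shares of all probe sets whose arrays did not overlap were not counted under these alternatives, so their member counts have no background beside them. The Cst3 161522_i_at difference turned to -0.00090 with a pseudocount of 250. With an array left out, differences ranged from -0.18 to 0.11 for Apbb1, -0.47 to 0.47 for Cst3 161522_i_at, -0.23 to 0.033 for Ece1, -0.41 to 0.085 for Ide 162160_at, -0.25 to 0.072 for Lrp1 and -0.0044 to 0.24 for Lrpap1 100086_at. Of the other 8 member probe sets, all but Mme and Lrpap1 161988_f_at had groups that did not overlap, which fixes the sign. All 8 kept it with each array left out. In those fits the lone array of a group borrows the spread of the other. With the replicate number as a block, limma again called 0 probe sets, and Apbb2 160903_at had an adjusted p of 0.664. The numbers are not stated to pair mice, and the gaps between replicates 1 and 2 of the groups correlated at r = -0.02 over 7453 probe sets. Under the floor of 250, Mme and Apbb2 161163_at had no difference to measure, since all 4 arrays lay below it. Probe sets as dim as these limit what can be said of Mme.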
